A study of Homo sapiens with 4 samples.

Results

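Matrix metalloproteinases and their inhibitors were followed in RNA sequencing of A375, an established human melanoma cell line, treated with paroxetine hydrochloride or with DMSO. The genotype is given as wild type in the sources at hand, and mutations of the line were not examined here. Paroxetine is a serotonin reuptake inhibitor used as an antidepressant, and DMSO is its solvent control. The 10 genes were taken by symbol: the secreted proteases MMP1, MMP2 and MMP9, the membrane-bound proteases MMP14 and MMP15, the inhibitors TIMP1, TIMP2 and TIMP3, and the sheddases ADAM10 and ADAM17. They are 10 of 60595 genes in the deposited table. There were 2 paroxetine (PH) and 2 DMSO libraries, and the sources at hand give neither dose nor duration. Separate cultures are not stated in the labels, so p-values cover only the spread among these 4 samples, part or all of which may be technical. The study is about serotonin reuptake blockade and genomic stability.

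Matrix metalloproteinases are zinc-dependent enzymes made as inactive precursors, and together they cut collagens, gelatin and other proteins of the extracellular matrix. TIMPs bind the active site and block it. MMP14, held in the plasma membrane, activates the MMP2 precursor with the help of TIMP2, while TIMP3 stays bound to the matrix and also inhibits ADAM17. ADAM10 and ADAM17 release the outer parts of membrane proteins such as growth factor precursors and Notch receptors. In melanoma these proteases are known mostly from work on invasion and on growth factor release.

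Levels are in FPKM, fragments scaled by transcript length and by library size, which allows genes to be compared per length within a library. FPKM is a share of each library, so fewer expressing cells and less RNA per cell cannot be told apart. FPKM totals were 606197 and 640029 in the PH libraries and 655607 and 655004 in the DMSO libraries, and numbers of fragments were not used here. Libraries of the same group correlated at r = 0.982 (PH) and r = 0.983 (DMSO) across genes, which are not independent replicates, and libraries of different groups at 0.941 to 0.942. Of 8 melanocyte lineage markers, SOX10, MITF and S100B reached 1 FPKM in a library, TYR was listed at 0 in all 4 libraries, and PMEL, MLANA, DCT and TYRP1 stayed below 1 FPKM. Summed, these markers stood at 283 and 281 FPKM in PH libraries and at 205 and 197 FPKM in DMSO libraries, nearly all of it SOX10 (275 and 271 FPKM in PH libraries, 193 and 181 FPKM in DMSO libraries). The other expressed markers lay the opposite way, with MITF at 5.36 and 5.98 FPKM in PH libraries and 7.23 and 7.73 FPKM in DMSO libraries, and S100B at 1.89 and 2.70 FPKM in PH libraries and 5.09 and 6.66 FPKM in DMSO libraries. Markers of other cell types summed to 7.44 and 8.25 FPKM in PH libraries and to 8.40 and 12.0 FPKM in DMSO libraries, with 2 of 10 (KRT14 and LUM) at 1 FPKM or more and none at 0 in all 4. KRT14 was lower in PH libraries (0.920 and 1.03 FPKM, against 3.59 and 5.76 FPKM in DMSO libraries), and LUM was higher (5.25 and 6.37 FPKM, against 3.08 and 4.92 FPKM in DMSO libraries). The part of either marker list in the results was not tested.

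Paroxetine was followed by lower transcript levels of both gelatinases, of TIMP3 and of ADAM10, and by a higher level of ADAM17. A gene was called when limma's test on log2(FPKM + 1) gave a Benjamini-Hochberg adjusted p under 0.05 over the 15511 genes with at least 1 FPKM in 2 or more libraries. All 10 genes passed this filter, but MMP1 passed through the PH libraries alone, and MMP9 and MMP15 through the DMSO libraries alone. Of the 10, 4 fell, 1 rose and 5 were not called. Over all tested genes 20.5% were called lower, 18.1% higher and 38.6% in either direction. In each of the 10 genes the PH and DMSO libraries did not overlap (PH lower in 6, higher in 4). The same held for 71.6% of all tested genes, with PH lower in 36.3% and higher in 35.3%. The median log2 change was -0.26 over the 10 genes and -0.0047 over all genes tested. All log2 changes are PH minus DMSO on the log2(FPKM + 1) scale, which understates the change of low genes.

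**Figure D1:**
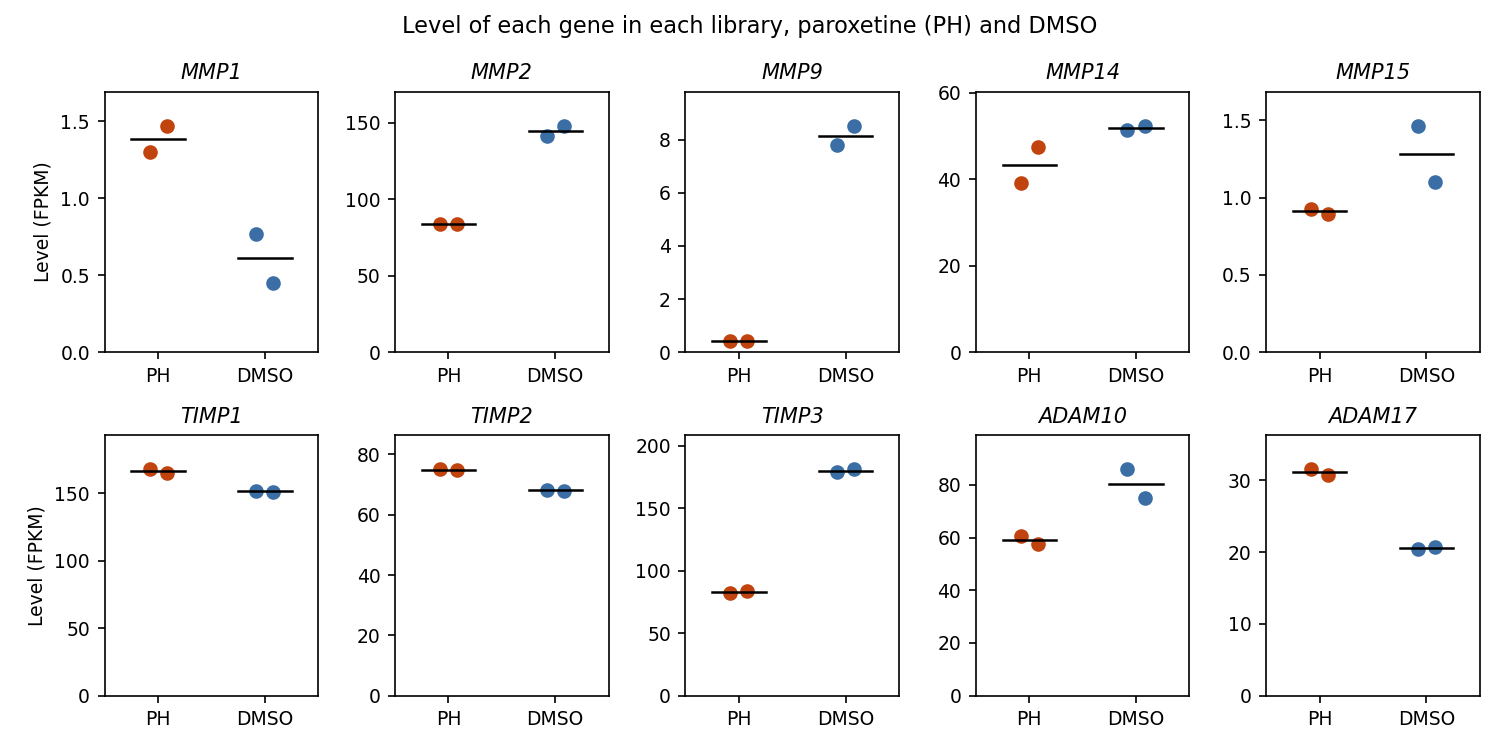
Level of each of the 10 genes in FPKM (vertical axis, from 0) in the 2 PH and the 2 DMSO libraries, with points for libraries and a bar for the group mean. The PH and DMSO points of each gene do not overlap, and the widest gap relative to level is that of MMP9, at 0.412 and 0.426 FPKM in PH libraries.

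MMP9, the gelatinase also called gelatinase B, showed the largest change of the 10. It stood at 0.412 and 0.426 FPKM in the PH libraries, against 7.78 and 8.51 FPKM in the DMSO libraries (ENSG00000100985, chromosome 20, 46008908 to 46016561). Both PH libraries were far below both DMSO libraries, and the groups did not come near each other. The group means of 0.419 ± 0.0101 FPKM in PH and 8.14 ± 0.518 FPKM in DMSO (SD, n = 2 each) differ 19.4-fold, and the ratio of any DMSO to any PH library lay between 18.2 and 20.7. The log2 change was -2.69 ± 0.16 (SE), with an adjusted p of 0.000527. In absolute size it was number 24 among the 15511 tested genes. MMP9 entered that set through its DMSO libraries alone, as both PH libraries were under the 1 FPKM minimum. The rank is thus not independent of the filter. The 19.4-fold difference rests on these low PH levels, and without numbers of fragments its precision is not known. Part of the MMP9 exon sequence (18.4%) is shared with SLC12A5-AS1 on the opposite strand, which had at most 0.0711 FPKM in any library.

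MMP2, the other gelatinase, was the most abundant of the 5 metalloproteinases in every library. It fell to 83.5 and 83.8 FPKM in the PH libraries, against 141 and 148 FPKM in the DMSO libraries (ENSG00000087245, chromosome 16, 55389700 to 55506691). The PH libraries were almost equal and lay well under both DMSO libraries. The mean fell by 42.1%, a log2 change of -0.78 ± 0.05 with an adjusted p of 0.000653. The level of MMP2 was 203 and 197 times that of MMP9 in PH libraries and 18.1 and 17.4 times in DMSO libraries, and the difference between the genes' changes was not tested.

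MMP1, the interstitial collagenase, was near the 1 FPKM filter in both groups. Its level was 1.30 and 1.47 FPKM in PH libraries, against 0.770 and 0.449 FPKM in DMSO libraries (ENSG00000196611, chromosome 11, 102789920 to 102798160). The PH libraries were higher without overlap, but the change was not called (log2 change 0.57 ± 0.22, 95% interval 0.0104 to 1.14, adjusted p = 0.0976). When limma's mean-variance trend was switched off MMP1 was called (adjusted p = 0.0415).

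The membrane-bound proteases were not called. MMP14, the main activator of the MMP2 precursor, had 39.1 and 47.4 FPKM in PH libraries and 51.3 and 52.3 FPKM in DMSO libraries (ENSG00000157227, chromosome 14, 22836557 to 22849027). PH replicate 1 was clearly the lowest, and PH replicate 2 came closer to the DMSO libraries. The log2 change was -0.26 ± 0.10 (95% interval -0.51 to -0.0049, adjusted p = 0.0974), and without PH replicate 2 it was -0.39 with an adjusted p of 0.0341. MMP15, a relative of MMP14, was low throughout, with 0.929 and 0.893 FPKM in PH libraries and 1.46 and 1.10 FPKM in DMSO libraries (ENSG00000102996, chromosome 16, 58025566 to 58046901). Its log2 change of -0.25 ± 0.21 had the widest uncertainty relative to size of the 10 (95% interval -0.78 to 0.28, adjusted p = 0.390).

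The inhibitors did not move together. TIMP3, which binds to the matrix and blocks both metalloproteinases and ADAM17, stood at 81.9 and 83.5 FPKM in PH libraries and at 179 and 181 FPKM in DMSO libraries (ENSG00000100234, chromosome 22, 32801701 to 32863043). Replicates of each group were within a few FPKM of each other and the groups were far apart. TIMP3 fell 2.18-fold by group means, a log2 change of -1.11 ± 0.05 with an adjusted p of 0.000284. The gene lies inside SYN3, on the other strand and with no exon bases in common, and SYN3 had 0.356 and 0.690 FPKM in PH libraries and 1.65 and 0.922 FPKM in DMSO libraries.

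TIMP1 and TIMP2, the soluble inhibitors, were slightly higher in PH libraries and not called. TIMP1, an inhibitor of MMP9 among others, had 168 and 165 FPKM in PH libraries and 152 and 151 FPKM in DMSO libraries (ENSG00000102265, chromosome X, 47582313 to 47586789; log2 change 0.13 ± 0.05, 95% interval 0.0128 to 0.254, adjusted p = 0.0793). TIMP2, which blocks MMP2 and takes part in its activation, had 75.04 and 74.9 FPKM in PH libraries and 68.3 and 67.9 FPKM in DMSO libraries (ENSG00000035862, chromosome 17, 78852977 to 78925387; log2 change 0.14 ± 0.05, 95% interval 0.0058 to 0.267, adjusted p = 0.0918). Both genes separated by group with a difference of about 10%, and both were called higher after quantile normalization (log2 changes of 0.30 and 0.23, adjusted p = 0.00803 and 0.0201). A short antisense transcript, AC022966.2, lies wholly inside the exons of TIMP2 (367 bases) and had 74.3 and 77.1 FPKM in PH libraries and 55.3 and 71.3 FPKM in DMSO libraries. The strand setting of the counting is not stated in the sources at hand. Reads from the shared bases, 6.52% of the exon bases of TIMP2, thus cannot be assigned to either gene.

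The unequal changes altered the order of levels. In PH libraries TIMP1 led, followed by MMP2 and TIMP3, whose levels differed by less than their spread. TIMP2, ADAM10, MMP14, ADAM17, MMP1, MMP15 and MMP9 came next in both PH libraries. In DMSO libraries TIMP3 led, followed by TIMP1, MMP2, ADAM10, TIMP2, MMP14, ADAM17, MMP9, MMP15 and MMP1, and TIMP1 and MMP2 were close (152 and 151 against 141 and 148 FPKM).

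Summed over genes, proteases and inhibitors were both lower in PH libraries. The 5 metalloproteinases summed to 125 and 134 FPKM in PH libraries and to 202 and 210.3 FPKM in DMSO libraries, and MMP2 held 66.7% and 62.5% of that sum in PH libraries and 69.7% and 70.4% in DMSO libraries. The 3 TIMPs summed to 325 and 323 FPKM in PH libraries and to 399 and 400.0 FPKM in DMSO libraries. TIMP3 made up 25.2% and 25.8% of the inhibitor sum in PH libraries, against 44.9% and 45.2% in DMSO libraries. The ratio of the TIMP sum to the metalloproteinase sum was 2.59 and 2.41 in PH libraries and 1.97 and 1.90 in DMSO libraries. The metalloproteinase sum leaves out MMP16, which was lower in PH libraries, and MMP17, which was higher (both described below). These sums describe transcripts, not protein or enzyme activity, and carry no test.

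**Figure D2:**
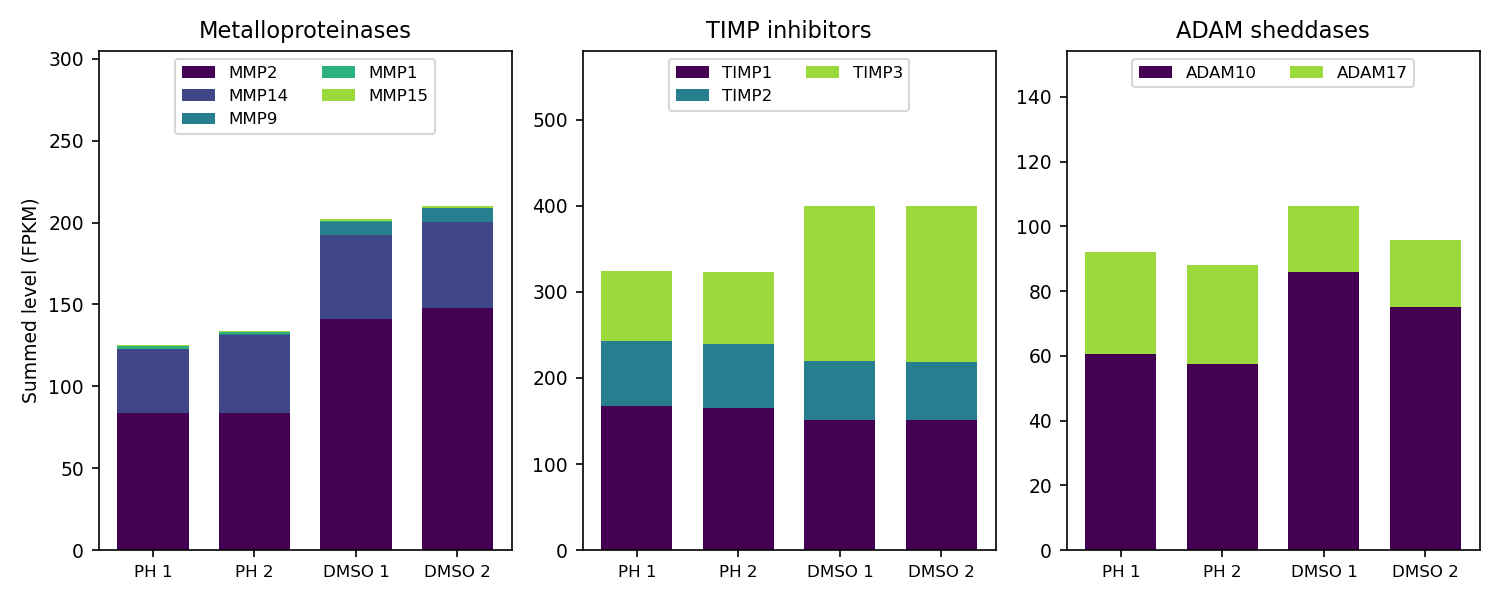
Summed FPKM (vertical axis, from 0) of the 5 metalloproteinases, the 3 TIMPs and the 2 ADAM sheddases in each PH and DMSO library, with colours for single genes. TIMP3 is the part of the inhibitor sum that is smaller in PH libraries. In the sheddase sum the ADAM10 part is smaller and the ADAM17 part larger in PH libraries.

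The sheddases moved in opposite directions, each past the threshold. ADAM17, which releases tumour necrosis factor and several ligands of the epidermal growth factor receptor, rose to 31.5 and 30.7 FPKM in PH libraries, against 20.5 and 20.7 FPKM in DMSO libraries (ENSG00000151694, chromosome 2, 9488486 to 9556732). The replicates were close and the groups well apart, with a log2 change of 0.57 ± 0.07 and an adjusted p of 0.00286. Exons of ADAM17 share 12.3% of their bases with IAH1 on the opposite strand. IAH1 was not called (28.6 and 29.1 FPKM in PH libraries, 27.9 and 27.0 FPKM in DMSO libraries, adjusted p = 0.463). As the strand setting is not stated, reads from the shared bases cannot be assigned to either gene. ADAM10, which cuts Notch receptors and the amyloid precursor protein, fell to 60.4 and 57.4 FPKM in PH libraries, against 85.9 and 75.2 FPKM in DMSO libraries (ENSG00000137845, chromosome 15, 58588807 to 58749978). DMSO replicate 1 was the highest and the DMSO libraries differed from each other more than the PH libraries did. The log2 change was -0.44 ± 0.08 with an adjusted p of 0.0113. The call of ADAM10 was lost without DMSO replicate 1 (log2 change -0.35, adjusted p = 0.0524) and without PH replicate 2 (-0.40, adjusted p = 0.0658). Over all alternatives its adjusted p ran from 0.0069 to 0.0658.

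Within a library, ADAM10 was 1.92 and 1.87 times as abundant as ADAM17 in PH libraries, against 4.19 and 3.63 times in DMSO libraries. TIMP3 was 2.60 and 2.72 times as abundant as its target ADAM17 in PH libraries, against 8.75 and 8.73 times in DMSO libraries. The ratios of each group stayed apart from those of the other, which follows from the non-overlapping levels of ADAM10, TIMP3 and ADAM17.

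**Figure D3:**
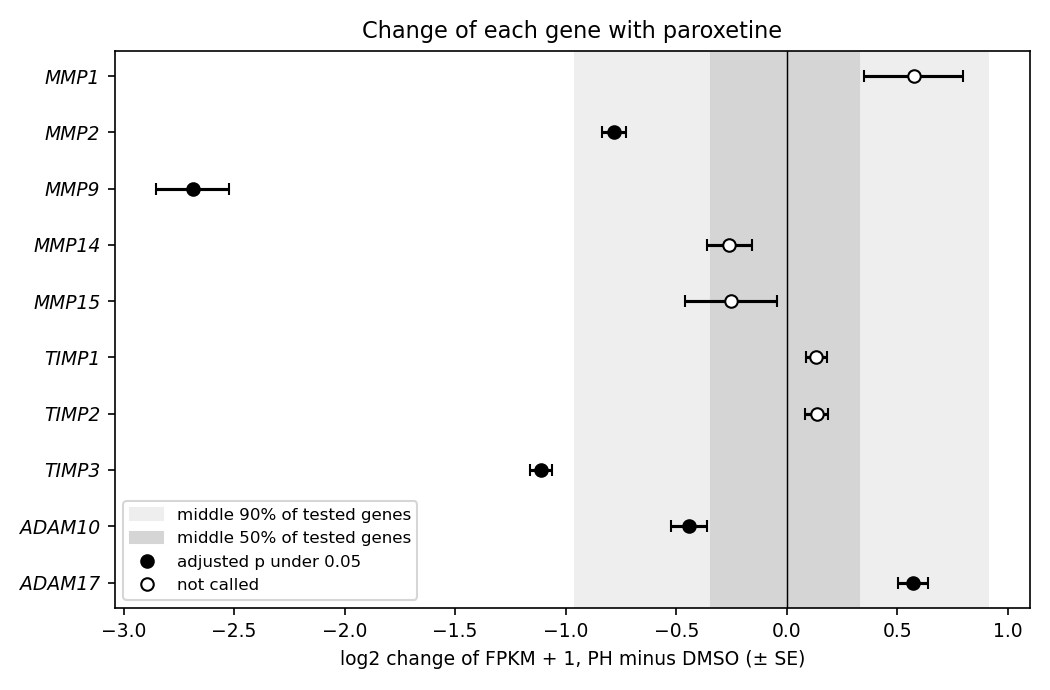
Change of each gene as log2(FPKM + 1), PH minus DMSO (horizontal axis), with bars for ± 1 SE, filled points for genes called at an adjusted p under 0.05 and grey bands for the spread of all tested genes. MMP9 and TIMP3 lie beyond the middle 90% of tested genes on the lower side, and ADAM17 is the called gene on the higher side.

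Of the 10 genes, 6 had a start-site sequence in the RefSeq table (GRCh38.p14), while MMP1, MMP2, MMP9 and TIMP2 had none. The 250 bases before the start are shown for the called genes TIMP3, ADAM10 and ADAM17, so that the 2 genes that fell and the gene that rose can be set side by side. They are printed 5′ to 3′ on the gene's own strand, with each match to the GC box GGGCGG (or its reverse complement CCGCCC) in capitals. TIMP3 lies at chr22:32801455-32801704 on the plus strand, ADAM10 at chr15:58749708-58749957 and ADAM17 at chr2:9555831-9556080, both on the minus strand. RefSeq's starts differ from the outermost GENCODE starts behind the gene spans given above, so the ADAM10 and ADAM17 stretches and the last few bases of the TIMP3 stretch lie within those spans.
TIMP3: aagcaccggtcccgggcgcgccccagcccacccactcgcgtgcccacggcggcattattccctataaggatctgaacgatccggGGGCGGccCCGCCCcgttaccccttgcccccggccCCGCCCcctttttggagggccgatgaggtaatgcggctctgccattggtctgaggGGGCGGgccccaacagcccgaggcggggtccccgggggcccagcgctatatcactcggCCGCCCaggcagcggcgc
ADAM10: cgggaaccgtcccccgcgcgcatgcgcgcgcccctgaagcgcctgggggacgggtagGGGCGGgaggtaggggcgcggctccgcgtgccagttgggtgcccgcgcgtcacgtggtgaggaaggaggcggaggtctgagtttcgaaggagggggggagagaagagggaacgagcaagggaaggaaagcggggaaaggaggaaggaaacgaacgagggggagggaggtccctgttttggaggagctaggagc
ADAM17: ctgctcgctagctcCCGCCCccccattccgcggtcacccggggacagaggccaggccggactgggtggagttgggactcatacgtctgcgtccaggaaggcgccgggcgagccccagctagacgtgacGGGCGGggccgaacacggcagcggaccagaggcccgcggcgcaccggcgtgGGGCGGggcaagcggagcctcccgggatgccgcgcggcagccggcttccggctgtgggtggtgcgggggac
The 3 stretches are rich in G and C (72.4%, 68.4% and 75.6% in TIMP3, ADAM10 and ADAM17, against a median of 58% over all 35116 promoters in the table). TIMP3 held 5 GC box matches, ADAM10 held 1 and ADAM17 held 3. The other genes with a sequence, none of them called, held 5 (MMP15), 2 (TIMP1) and 1 (MMP14). Of all promoters of this length, 42.6% hold at least 1. The motif TGANTCA of AP-1, a transcription factor made of FOS and JUN proteins, had no match in the 250 bases of any of the 6 genes and a match in 6.57% of all promoters. The letters CCGGAA, a core bound by ETS factors, matched once, in ADAM17 with the first base 26 bases before the start, and match in 14.5% of all promoters. TATAAA matched in none of the 6 and matches in 10.7% of all promoters. Motifs were searched on both strands, and a match is a description of letters.

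Related genes were described from 8 lists of enzymes, inhibitors, activators, partners, substrates and transcription factors, 121 genes in all, of which 70 were tested. Of these 11 rose and 24 fell, shares to be read beside the 18.1% and 20.5% of all tested genes. The counts of each list below are to be read beside the same shares. Fewer of them were called lower when any 1 library of either group was left out, and the same was true of all tested genes. Such a fit leaves 1 library in that group.

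Most other members of the metalloproteinase family were scarcely detected. Of 18, 5 were tested, 1 rose, 1 fell and 3 were not called (median log2 change 0.06). MMP17, a protease anchored to the membrane by a lipid, rose to 17.8 and 17.1 FPKM in PH libraries, against 4.20 and 5.43 FPKM in DMSO libraries (log2 change 1.67 ± 0.14, adjusted p = 0.00106). That was the largest rise of the tested genes in the 8 lists. MMP16, a membrane-type protease, fell slightly, to 24.7 and 24.4 FPKM in PH libraries against 28.95 and 29.6 FPKM in DMSO libraries (log2 change -0.24 ± 0.07, adjusted p = 0.0385), and its call was lost whichever library was left out (adjusted p from 0.113 to 0.140).

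Among the 3 tested of 5 other inhibitors, 2 fell and 0 rose (median log2 change -0.60). SPOCK1, which encodes the proteoglycan testican, had 10.6 and 11.1 FPKM in PH libraries and 24.7 and 24.9 FPKM in DMSO libraries (log2 change -1.12 ± 0.08, adjusted p = 0.000765). RECK, a membrane-anchored inhibitor of metalloproteinases, had 2.61 and 2.203 FPKM in PH libraries and 3.68 and 4.68 FPKM in DMSO libraries. RECK was called at the edge of the threshold (log2 change -0.60 ± 0.18, adjusted p = 0.0498) and lost the call whichever library was left out (0.0851 to 0.201).

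Of 8 tested genes of activation, docking and induction, 5 were lower, 2 higher and 1 not called (median log2 change -0.35). The shares over all tested genes were 20.5% lower and 18.1% higher. PLAT, tissue plasminogen activator, fell to 20.5 and 20.2 FPKM in PH libraries, against 64.6 and 66.9 FPKM in DMSO libraries (log2 change -1.64 ± 0.06, adjusted p = 0.000217). Its protein turns plasminogen into plasmin, which can activate metalloproteinases, but the plasminogen gene PLG was listed at 0 in all 4 libraries. PLAUR, the urokinase receptor, fell to 31.6 and 35.5 FPKM in PH libraries, against 52.5 and 58.9 FPKM in DMSO libraries, and BSG, an inducer of metalloproteinases also known as EMMPRIN, to 212 and 204 FPKM, against 293 and 268 FPKM in DMSO libraries. LRP1, an endocytic receptor that clears proteases and their inhibitors from the cell surface, rose to 25.5 and 27.9 FPKM in PH libraries, against 12.3 and 12.7 FPKM in DMSO libraries (log2 change 1.03 ± 0.08, adjusted p = 0.00105). The number that fell was 3 without DMSO replicate 1, without DMSO replicate 2 and without PH replicate 1, and in each of these fits 1 gene rose.

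Other ADAM genes moved the way of ADAM10 where they were called. Of 7 tested, 3 fell, 0 rose and 4 were not called (median log2 change -0.64). ADAM12 passed the filter through the DMSO libraries alone, and the median without it was -0.51. ADAM19 fell to 10.1 and 8.94 FPKM in PH libraries, against 24.8 and 25.9 FPKM in DMSO libraries (log2 change -1.32 ± 0.10, adjusted p = 0.000779). ADAM15 fell to 30.5 and 28.9 FPKM in PH libraries, against 48.8 and 51.4 FPKM in DMSO libraries, and ADAM9 to 44.6 and 37.7 FPKM, against 63.1 and 67.6 FPKM in DMSO libraries. All 3 encode membrane proteins with a metalloproteinase domain, and each kept its call whichever library was left out. Of 5 tested ADAMTS genes, the secreted relatives, 2 fell, 0 rose and 3 were not called (median log2 change -0.66, or -0.57 without ADAMTS6, which passed the filter through the DMSO libraries alone). The genes that fell were ADAMTS3, a procollagen-processing enzyme (1.605 and 1.71 FPKM in PH libraries, 4.10 and 3.71 FPKM in DMSO libraries), and ADAMTS12 (6.20 and 6.51 FPKM in PH libraries, 10.4 and 10.7 FPKM in DMSO libraries). Neither was called without DMSO replicate 1 or without DMSO replicate 2, and ADAMTS3 was not called without PH replicate 1 (adjusted p = 0.0561).

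The partners that carry the sheddases to the cell surface moved in both directions, with 1 of 8 tested genes higher, 2 lower and 5 not called (median log2 change 0.06). RHBDF1, a rhomboid-like protein of ADAM17 maturation, rose to 60.9 and 53.6 FPKM in PH libraries, against 36.0 and 32.8 FPKM in DMSO libraries (log2 change 0.72 ± 0.09, adjusted p = 0.00324). TSPAN14, a tetraspanin that escorts ADAM10, fell to 49.2 and 50.9 FPKM in PH libraries, against 84.5 and 83.1 FPKM in DMSO libraries (log2 change -0.73 ± 0.05, adjusted p = 0.000837). TSPAN5, a tetraspanin of the same kind, fell to 6.88 and 8.15 FPKM in PH libraries, against 11.2 and 11.04 FPKM in DMSO libraries, and was not called without DMSO replicate 1, without DMSO replicate 2 or without PH replicate 1 (adjusted p from 0.0961 to 0.112). RHBDF1 thus had the sign of ADAM17, and TSPAN14 and TSPAN5 the sign of ADAM10, but the list as a whole showed no such pairing. The other tested tetraspanins TSPAN10, TSPAN33 and TSPAN17 had log2 changes of 0.48, 0.31 and 0.07. RHBDF2 and FRMD8 had log2 changes of 0.05 and -0.08, and none of these genes was called.

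Among substrates of the sheddases, 2 of 20 tested genes rose, 6 fell and 12 were not called (median log2 change 0.017, or 0.0022 without BTC, which passed the filter through the PH libraries alone). The heparan sulfate proteoglycan SDC1 fell to 12.4 and 13.2 FPKM in PH libraries, against 30.2 and 28.8 FPKM in DMSO libraries, and its relative SDC4 to 88.2 and 87.1 FPKM, against 167 and 156 FPKM in DMSO libraries. AREG, a growth factor precursor cut by ADAM17, fell to 3.03 and 2.85 FPKM in PH libraries, against 5.88 and 6.90 FPKM in DMSO libraries, and was not called without DMSO replicate 2 (adjusted p = 0.0590). MICA, a ligand of the natural killer cell receptor NKG2D, rose to 10.4 and 7.87 FPKM in PH libraries, against 6.23 and 4.82 FPKM in DMSO libraries, and lost its call whichever library was left out (adjusted p from 0.0600 to 0.190). Without DMSO replicate 2 the number that fell was 3. Without DMSO replicate 1, DMSO replicate 2 or PH replicate 1 the number that rose was 0.

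Of 15 AP-1, ETS and NF-kappaB transcription factors, all tested, 6 rose, 3 fell and 6 were not called (median log2 change 0.16). FOSB rose to 6.95 and 7.13 FPKM in PH libraries, against 2.12 and 1.98 FPKM in DMSO libraries (log2 change 1.398 ± 0.14, adjusted p = 0.00177), and FOS to 7.71 and 10.1 FPKM, against 3.12 and 2.44 FPKM in DMSO libraries. JUN rose to 13.9 and 13.5 FPKM in PH libraries, against 7.03 and 6.42 FPKM in DMSO libraries, and JUND to 87.2 and 75.8 FPKM, against 46.6 and 38.7 FPKM in DMSO libraries. All 4 are subunits of AP-1, and each kept its call whichever library was left out. FOSL1, an AP-1 subunit too and the most abundant gene of the list, fell to 164 and 205 FPKM in PH libraries, against 293 and 282 FPKM in DMSO libraries (log2 change -0.65 ± 0.11, adjusted p = 0.00889). It was named after its values were seen, and it was not called without DMSO replicate 1 (adjusted p = 0.0683) or without DMSO replicate 2 (0.0587). Without DMSO replicate 1 the number that fell in this list was 1, and without DMSO replicate 2 it was 0.

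**Figure D4:**
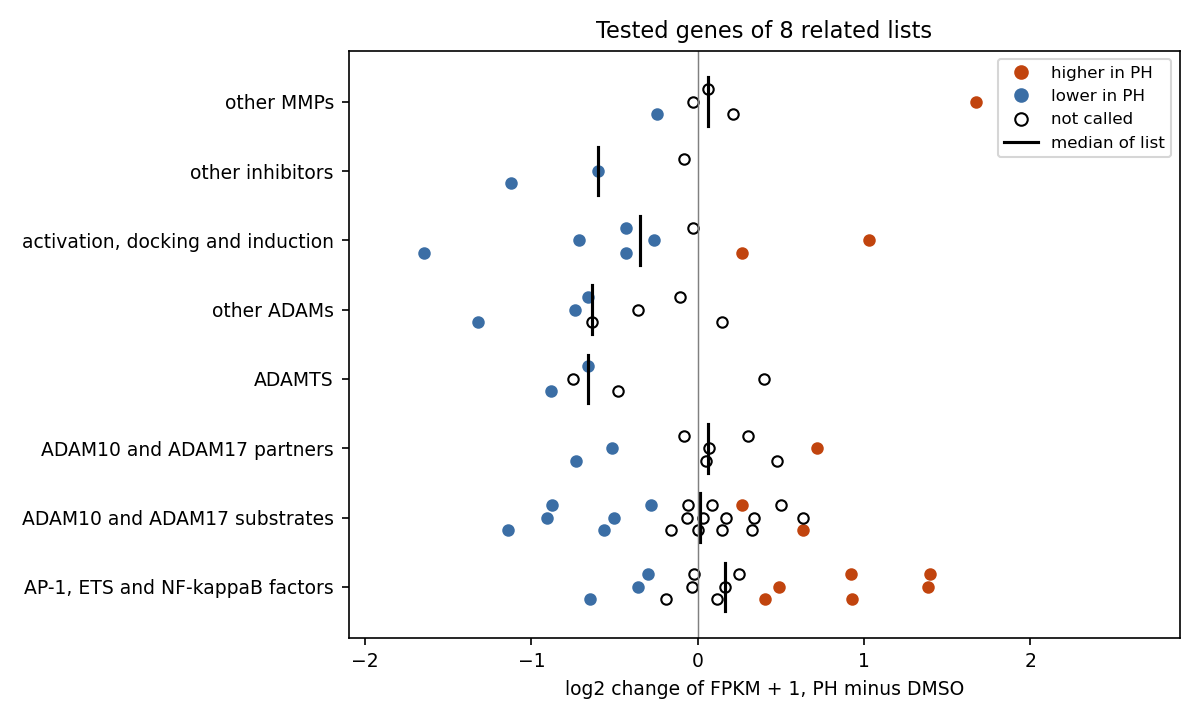
Log2 change of FPKM + 1, PH minus DMSO (horizontal axis), of the tested genes of 8 related lists, with points for genes coloured by call and a vertical bar for the median of each list. The medians run from -0.66 (ADAMTS) to 0.16 (transcription factors), and MMP17 is the point farthest to the right.

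The genes whose profile over the 4 libraries was most like that of MMP9 were MCM5, a subunit of the replicative helicase, KRT81, a hair keratin, and THBS1, which encodes thrombospondin. Likeness was the Euclidean distance between log2(FPKM + 1) values set to the DMSO mean, among 12182 tested protein-coding genes. The distances were 0.142 for MCM5, 0.155 for KRT81 and 0.170 for THBS1. For ADAM17 they were 0.0152 for TMEM41B, a protein of the endoplasmic reticulum membrane, 0.0154 for GOLPH3L, a Golgi protein, and 0.0230 for SYPL2. With 4 libraries in 2 groups, such a distance mostly compares the sizes of the group differences.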

How the data were processed

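The authors' deposited table holds FPKM values per gene for each library. Per the submitters' processing notes, CASAVA 1.4, HISAT2 2.1.0 and Cufflinks 2.2.1 were used with hg38, while options, annotation, strand setting and scaling between libraries are not stated in the sources at hand. The 4 FPKM columns were assigned to samples through their names, and 12 columns of bounds and status were left unused. Gene locations and overlaps are from GENCODE release 29 (GRCh38).

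Genes with at least 1 FPKM in 2 or more of the 4 libraries were tested for PH minus DMSO on log2(FPKM + 1). The test was limma's (version 3.58.1, trended variances, 2 residual and 3.32 prior degrees of freedom) and two-sided, with Benjamini-Hochberg adjustment over all tested genes. The pipeline was tested on simulated data. At an unadjusted p under 0.05 there were 7609 genes, 9 of the 10 among them. Alternatives were log2(FPKM + 0.1), no filter, a minimum of 5 FPKM, trimmed-mean scaling (dropping 30% by log ratio and 5% by mean level at each end), quantile normalization, no trend, a replicate block and each library left out.

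The 10 genes and the lists were chosen with earlier results of these data known. The text names the 10 genes, up to 4 called genes per list by size of change among those whose groups do not overlap, and the 3 nearest profiles of the called genes with the largest fall and rise among the 10. Exons of 4 of the 24 named list genes (LRP1, BSG, ADAM19 and MICA) share bases with another expressed gene. Software was Python 3.11.15 with matplotlib 3.10.9 and pandas 2.3.3, and R 4.3.3.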

Additional observations from a re-analysis of the deposited data

How the results depend on the processing

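The direction of change of the 10 genes was the same under every alternative in which each was tested. Because the groups did not overlap in any of these genes, only trimmed-mean scaling and quantile normalization could have reversed a direction. MMP1 and MMP15 were not tested at a minimum of 5 FPKM. MMP2, MMP9, TIMP3 and ADAM17 kept their calls under all 11 alternatives, with log2 changes of -0.81 to -0.63, -3.99 to -2.63, -1.13 to -0.94 and 0.55 to 0.61. The number of the 10 called higher was 3 after quantile normalization and 2 without the mean-variance trend. Of the 24 named list genes 17 kept their calls under every alternative in which they were tested. ADAMTS3, ADAMTS12 and AREG lost theirs without certain libraries only, TSPAN5 and MICA also with no filter, MICA also without the trend, RECK in 8 of 10 alternatives and MMP16 in 8 of 11. Without 1 library, 1442 to 1539 genes of the whole table were called higher and 1773 to 2221 lower, and 8 to 11 genes of the related lists were higher and 11 to 19 lower. Which libraries form a pair is not stated: same-numbered libraries deviated from their group means with r = -0.0425, and a replicate block gave 2492 genes higher and 2883 lower, 1 and 4 of the 10 genes, and 11 and 22 of the related genes. With 2 libraries per group and no numbers of fragments, low levels are measured least precisely. These include MMP1 and MMP15, and MMP9 in the PH libraries.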

Other observations

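Much of the protease family was near or at 0 in these cells. Of the 18 other metalloproteinase genes 13 were below the filter and 6 of them were listed at 0 in all 4 libraries: MMP3, MMP7, MMP20, MMP23B, MMP26 and MMP27. MMP3 and MMP10 neighbour MMP1 on chromosome 11, and MMP10 had 0.257 and 0.430 FPKM in PH libraries and 0.0688 and 0 FPKM in DMSO libraries. MMP11, stromelysin 3, reached 2.80 FPKM in PH replicate 2, with 0.774 FPKM in PH replicate 1 and 0.442 and 0.953 FPKM in DMSO libraries, so a single library stood apart. Outside the metalloproteinases, TIMP4 and the plasmin precursor PLG were listed at 0 in all 4 libraries, and PLAU, urokinase, had 0.699 and 1.17 FPKM in PH libraries and 0.489 and 0.553 FPKM in DMSO libraries. ADAMTS4, an aggrecan-cleaving protease, had 0.216 and 0.133 FPKM in PH libraries and 1.00 and 0.884 FPKM in DMSO libraries. These genes were picked after their values were seen and carry no test.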
